A study of Mus musculus with 12 samples.

Results

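The genes described here are 4 keratins of simple epithelium (Krt7, Krt8, Krt18 and Krt19), 3 further genes of the pancreatic duct and of epithelial cells (Epcam, Cdh1 and Sox9), and 3 genes of epithelial-mesenchymal transition (Vim, Zeb1 and Snai2). They were taken by gene symbol, 10 of the 15803 transcripts that the deposited tables list. The libraries came from KPC cells, a single mouse pancreatic ductal adenocarcinoma (PDAC) line established from tumors with mutant Trp53 under Pdx1-driven Cre, so all groups share the alleles of the line. The cells received 20 µM cisplatin (Cis), a platinum drug that crosslinks DNA, for 6 h or 21 h, or no drug. The control libraries are labelled as untreated, the study's methods name PBS as the control, and the labels do not give the time in PBS. Each of the 3 groups has 2 ribosome footprint libraries and 2 RNA-seq libraries, 12 in all, and 1 pair of PBS libraries per assay serves as the control of both time points.

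Keratins form intermediate filaments from obligate pairs of a type I and a type II chain. KRT8 and KRT7 are type II, KRT18 and KRT19 are type I, and the KRT8/KRT18 pair is the basic filament of duct and other simple epithelia, with KRT7 and KRT19 typical of ducts. In epithelial-mesenchymal transition, cells lose E-cadherin (CDH1) at their junctions and gain vimentin (VIM), a filament protein of mesenchymal cells, under transcription factors such as ZEB1 and SNAI2 (Slug). These factors bind E-box motifs, among them CACCTG, and repress epithelial genes. EPCAM is an epithelial adhesion protein of the cell surface, and SOX9 is a transcription factor that marks pancreatic progenitors and adult duct cells.

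Depth was 3375480 to 5204127 recovered footprint reads and 1985344 to 2901692 recovered RNA-seq reads per library, and in RNA-seq 51.8% to 56.6% of the reads lay on 3 transcripts alone (Lars2, Tmem38b, Mettl26), which held at most 0.00537% of footprints. The 7 markers of the labelled cell type (the keratins, Epcam, Cdh1 and Sox9) are the epithelial genes described here, so they are no separate check. Their summed level, nearly all from Krt8, Krt18 and Krt19, was 6728 to 9794 RPKM in footprints and 1322 to 1527 RPKM in RNA-seq. All 7 had reads, but Epcam, a defining surface marker, was near 0. Summed over their lists, 8 fibroblast, 7 leukocyte, 4 endothelial and 6 acinar markers each stayed at or below 9.68 RPKM in every library. Col3a1 (fibroblast) had the most reads of these, 38 to 185 in footprints, while Ptprc (leukocyte) had 0 to 3 and Thy1, Cd3e, Tek, Cpa1, Amy2a5, Ptf1a and Bhlha15 were not listed. The leukocyte sum was 1.87 to 2.35 RPKM in the PBS footprints and 3.57 to 9.68 RPKM at 21 h, and in RNA-seq 0.513 to 1.03 and 2.13 to 4.60 RPKM. The acinar sum was 4.29 to 4.68 RPKM in the PBS footprints and 6.10 to 7.59 RPKM at 21 h. In RNA-seq it was lower at 21 h, at 0.432 to 2.32 RPKM, than in PBS, at 2.70 to 2.80 RPKM. The part of the leukocyte and acinar markers in the results was not tested. In these bulk lysates, fewer cells of a type and less RNA per cell cannot be told apart.

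Because Krt8 and Krt18 lie close together and changed differently, and because Epcam was almost silent, the 250 bases before the start sites of these 3 genes are shown, from RefSeq (GRCm38.p6) and 5′ to 3′ on the gene's own strand. Capitals mark CACCTG or its reverse complement CAGGTG.
Krt8, chr15:102004343-102004592, minus strand: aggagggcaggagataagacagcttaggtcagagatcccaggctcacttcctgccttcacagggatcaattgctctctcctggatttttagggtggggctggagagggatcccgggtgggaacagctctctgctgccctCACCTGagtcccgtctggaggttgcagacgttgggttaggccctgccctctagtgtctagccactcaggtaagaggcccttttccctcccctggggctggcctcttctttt
Krt18, chr15:102027966-102028215, plus strand: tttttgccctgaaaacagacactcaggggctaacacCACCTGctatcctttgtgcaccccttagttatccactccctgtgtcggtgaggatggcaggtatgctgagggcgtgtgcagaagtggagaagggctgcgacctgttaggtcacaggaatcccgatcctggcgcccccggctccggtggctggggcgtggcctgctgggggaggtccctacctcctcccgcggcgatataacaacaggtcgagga
Epcam, chr17:87635729-87635978, plus strand: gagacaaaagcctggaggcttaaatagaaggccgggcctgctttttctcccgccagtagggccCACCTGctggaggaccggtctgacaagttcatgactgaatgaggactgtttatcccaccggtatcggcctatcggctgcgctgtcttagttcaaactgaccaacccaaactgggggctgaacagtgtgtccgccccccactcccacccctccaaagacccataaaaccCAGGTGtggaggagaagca
Krt8 and Krt18 are on mouse chromosome 15 with 23.9 kb between them and 2 other annotated genes (Gm36026 and Gm41404) in the gap. Over the RefSeq windows of 250 bases before and 50 after the start, the motif begins at position -111 in Krt8, at -214 in Krt18, at -44 in Krt7, and at -187 and -19 in Epcam, while the Vim window holds none. These 5 genes are those matched in the promoter table. Of 32851 mouse promoters of the same length, 20.2% held the motif at least once and 2.88% at least 2 times, and a match in the sequence is a description, not a bound site.

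In PBS, Krt8, Vim, Krt19 and Krt18 were among the most heavily translated transcripts of the cells, at ranks 22, 39, 58 and 123 of 12780 listed. Their mean levels per length of coding sequence were 4749 ± 98.8 (SD, n = 2), 3610 ± 5.42, 2883 ± 282 and 1645 ± 106 RPKM. Cdh1 followed at 143 ± 5.86 RPKM, and Krt7, Snai2, Sox9 and Zeb1 were far lower at 21.2 ± 1.02, 15.5 ± 4.30, 12.1 ± 1.32 and 8.46 ± 1.01 RPKM. The 2 PBS libraries of each neighbour in this order did not overlap, except for Snai2 and Sox9. Together Krt8, Krt18 and Krt19 took 1.26% ± 0.0621 of all PBS footprints, and Vim took 0.505% ± 0.000757. The lysates therefore held the message and the footprints of both epithelial keratins and vimentin before any drug was given. Bulk lysates do not show whether both came from the same cells.

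Epcam was the exception among the epithelial genes. Its footprints amounted to 9 and 3 reads in the PBS libraries, 6 and 1 at 6 h, and 1 and 6 at 21 h. In RNA-seq it had 0 to 4 reads and was listed in only 3 of the 6 libraries, so that its mean fell under the limit of 1 RPKM and it was not tested there. Differences in Epcam were not detectable at this depth.

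**Figure D1:**
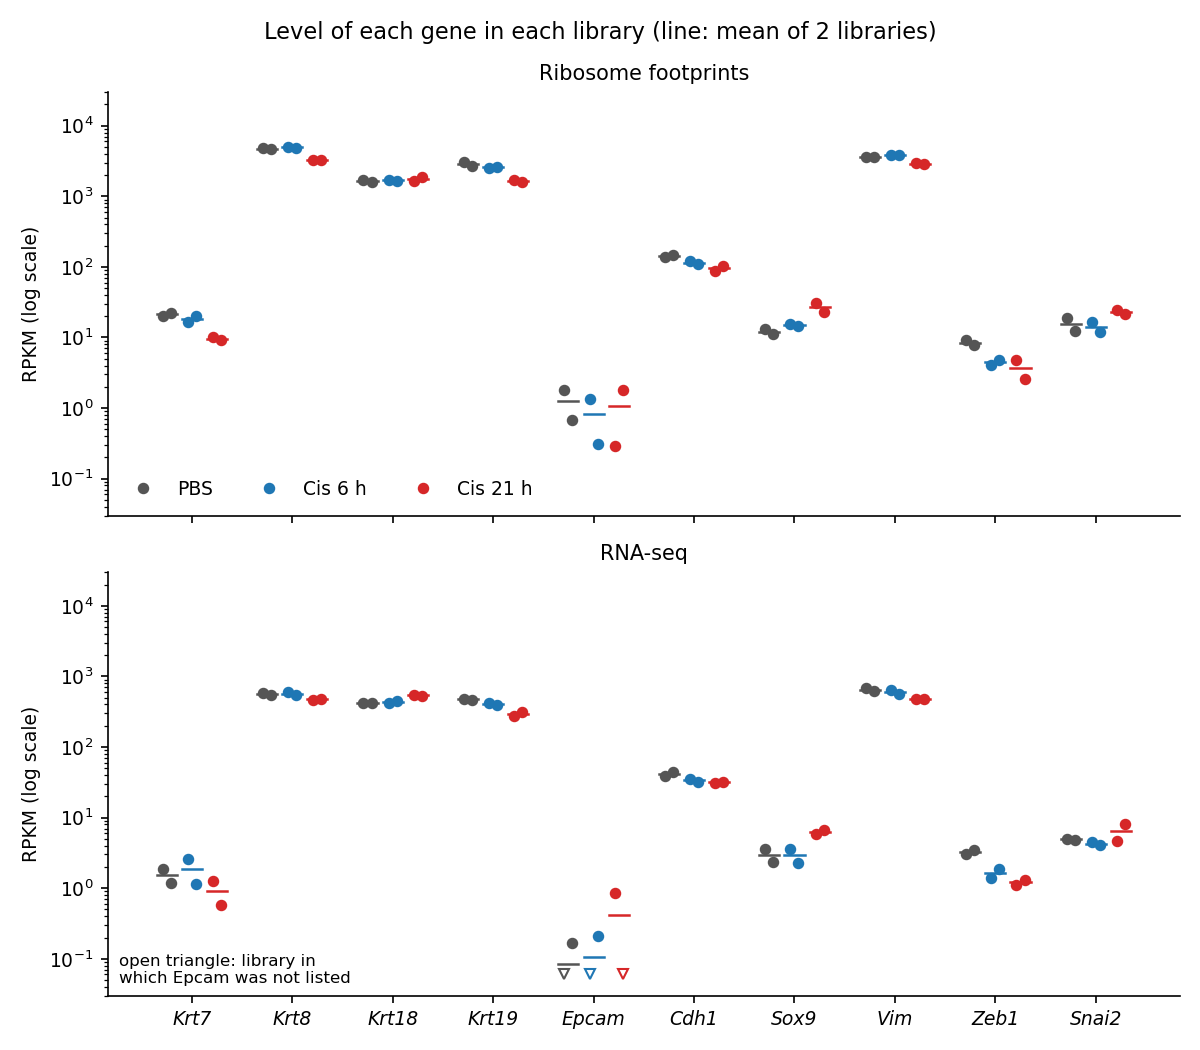
RPKM (log scale) of each of the 10 genes in each footprint library (top) and RNA-seq library (bottom), by group, with the mean of 2 libraries as a line and open triangles for libraries that do not list Epcam. At 21 h the footprint points of Krt7, Krt8, Krt19, Cdh1, Vim and Zeb1 lie below both PBS points and those of Sox9 above them, while those of Krt18 overlap the PBS points (1668 and 1856 RPKM against 1720 and 1570 RPKM).

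The order of the message differed from that of the footprints. In the PBS RNA-seq libraries Vim came first at 649 ± 39.0 RPKM per transcript length, before Krt8 at 558 ± 30.5, Krt19 at 471 ± 9.20 and Krt18 at 424 ± 3.24 RPKM. The footprint RPKM divided by the RNA-seq RPKM of the same replicate number, a measure of translation efficiency (TE), was 8.52 ± 0.288 for Krt8, 6.12 ± 0.479 for Krt19, 5.57 ± 0.327 for Vim and 3.88 ± 0.221 for Krt18. Relative to the median transcript, these ratios were 2.45 for Krt8, 1.76 for Krt19, 1.60 for Vim and 1.12 for Krt18. They were 1.22 for Sox9, 0.990 for Cdh1, 0.905 for Snai2 and 0.750 for Zeb1. That of Krt7 was the highest of these at 4.26, but on only 19 and 14 RNA-seq reads in PBS. Krt8 thus carried more footprints per message than its partner Krt18 in both PBS libraries (8.31 and 8.72 against 4.04 and 3.73). Both measures rest on the transcript lengths used by the authors.

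The first comparison asks what had changed after 6 h of cisplatin. None of the 10 genes passed in footprints by limma at an adjusted p under 0.05, where 1.05% of 10383 tested transcripts were called higher and 0.992% lower. At an unadjusted p under 0.05 there were 2, Cdh1 and Zeb1, against 21.4% of all tested, so that 2 of 10 is near the background. Limma's voom on the recovered reads called the same 2 lower, where it called 7.92% of all lower. Cdh1 footprints were 138 and 147 RPKM in PBS and 119 and 109 RPKM at 6 h (log2 fold change -0.33, SE 0.11, limma adjusted p = 0.126; voom adjusted p = 0.0113). Zeb1 footprints were 9.17 and 7.75 RPKM in PBS and 4.07 and 4.86 RPKM at 6 h (log2 fold change -0.86, SE 0.29, limma adjusted p = 0.137; voom adjusted p = 0.00173). The 6 h and PBS groups of Cdh1 and of Zeb1 did not overlap. For the keratins the 95% confidence intervals of the log2 fold change were -0.12 to 0.19 for Krt8, -0.16 to 0.21 for Krt18, -0.35 to 0.02 for Krt19 and -0.58 to 0.14 for Krt7, whose 2 libraries lay below those of PBS. The log2 fold change was 0.30 for Sox9, 0.07 for Vim, -0.12 for Snai2 and -0.44 for Epcam, with intervals that all included 0.

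In RNA-seq at 6 h, limma called none of the 9 genes tested and 0.0% of all 9443 transcripts in either direction. At an unadjusted p under 0.05 there were 1086 transcripts (11.5%) and 1 of the 9 genes, Zeb1, and voom called 57 transcripts higher and 172 lower (2.43% together) but none of these genes. Zeb1 was at 3.08 and 3.45 RPKM in PBS and at 1.39 and 1.87 RPKM at 6 h, from 44, 58, 16 and 25 reads (log2 fold change -0.78, SE 0.29, limma adjusted p = 0.364). The 6 h and PBS libraries of Zeb1 were apart in both assays. The log2 fold change of the other genes was 0.08 for Krt8, 0.10 for Krt18, -0.14 for Krt19, 0.23 for Krt7, -0.23 for Cdh1, 0.05 for Sox9, -0.05 for Vim and -0.12 for Snai2, and each 95% confidence interval included 0.

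In footprints at 21 h limma called 6 of the 10 genes lower (Krt7, Krt8, Krt19, Cdh1, Vim and Zeb1), where 20.2% of all tested transcripts were lower, and 1 higher (Sox9), where 18.9% were higher. The median log2 fold change was -0.47 over the 10 genes and 0.01 over all tested. Voom called 7 of the 10, where it called 44.8% of all transcripts. By role, 4 of the 7 epithelial genes and 2 of the 3 mesenchymal genes were lower, with medians of -0.59 and -0.35, so members of both groups fell.

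Among the type II keratins, Krt8 (ENSMUSG00000049382) footprints were 4819 and 4679 RPKM in PBS, 4949 and 4876 RPKM at 6 h, and 3214 and 3261 RPKM at 21 h. The 21 h libraries lay below all others, at 0.665 of PBS (log2 fold change -0.59, SE 0.07, limma adjusted p = 0.000347). Krt7 (ENSMUSG00000023039) had 20.5 and 21.9 RPKM in PBS, 16.5 and 20.3 RPKM at 6 h, and 10.1 and 9.19 RPKM at 21 h. This was the largest fall among the keratins, to 0.456 of PBS (log2 fold change -1.13, SE 0.16, limma adjusted p = 0.000914), on 146 and 140 PBS reads against 51 and 44.

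The 2 type I keratins parted. Krt19 (ENSMUSG00000020911) footprints were 3082 and 2683 RPKM in PBS, 2554 and 2621 RPKM at 6 h, and 1716 and 1608 RPKM at 21 h. Every 21 h value was below every other one, at 0.563 of PBS (log2 fold change -0.83, SE 0.08, limma adjusted p = 0.000161). Krt18 (ENSMUSG00000023043) footprints were 1720 and 1570 RPKM in PBS, 1715 and 1671 RPKM at 6 h, and 1668 and 1856 RPKM at 21 h. Its groups overlapped, and the log2 fold change at 21 h was 0.06 with a 95% confidence interval from -0.12 to 0.25, an interval that lies wholly above that of Krt8, its filament partner (-0.74 to -0.43), and that of Krt19 (-1.01 to -0.64).

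Cdh1 (ENSMUSG00000000303), which encodes E-cadherin, had footprints of 138 and 147 RPKM in PBS and 88.3 and 102 RPKM at 21 h. The groups did not overlap, and the level was 0.650 of PBS (log2 fold change -0.62, SE 0.11, limma adjusted p = 0.00225). Sox9 (ENSMUSG00000000567) went the other way. It had 13.0 and 11.1 RPKM in PBS, 15.6 and 14.6 RPKM at 6 h, and 30.9 and 22.8 RPKM at 21 h. Its 21 h libraries were the highest, 2.10 times PBS (log2 fold change 1.07, SE 0.17, limma adjusted p = 0.00178).

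Of the mesenchymal genes, Vim (ENSMUSG00000026728) had footprints of 3614 and 3606 RPKM in PBS, 3862 and 3797 RPKM at 6 h, and 2931 and 2867 RPKM at 21 h. The 21 h libraries were the lowest, at 0.783 of PBS (log2 fold change -0.35, SE 0.07, limma adjusted p = 0.00414). Zeb1 (ENSMUSG00000024238) had 4.86 and 2.56 RPKM at 21 h, from 60 and 30 reads, against 160 and 121 reads in PBS. Its log2 fold change was -1.17 (SE 0.29, limma adjusted p = 0.0119), and 1 library could end the call, since the adjusted p was 0.0772 without the first PBS library and 0.0505 without the second 21 h library. RefSeq places the noncoding RNA Gm10125 within the Zeb1 gene, and whether counting used strand is not given in the sources used here.

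Snai2 (ENSMUSG00000022676), the second repressor of Cdh1 in the group, did not follow Zeb1. Its footprints were 18.6 and 12.5 RPKM in PBS, 16.4 and 12.1 RPKM at 6 h, and 24.5 and 21.3 RPKM at 21 h. The 21 h libraries were above the others without passing against PBS (log2 fold change 0.53, 95% confidence interval 0.05 to 1.02, limma adjusted p = 0.0790). The value turned on the PBS libraries, at 0.79 without the first (limma adjusted p = 0.0404) and 0.27 without the second (0.408). The reads behind these values numbered 33 to 78 per library.

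**Figure D2:**
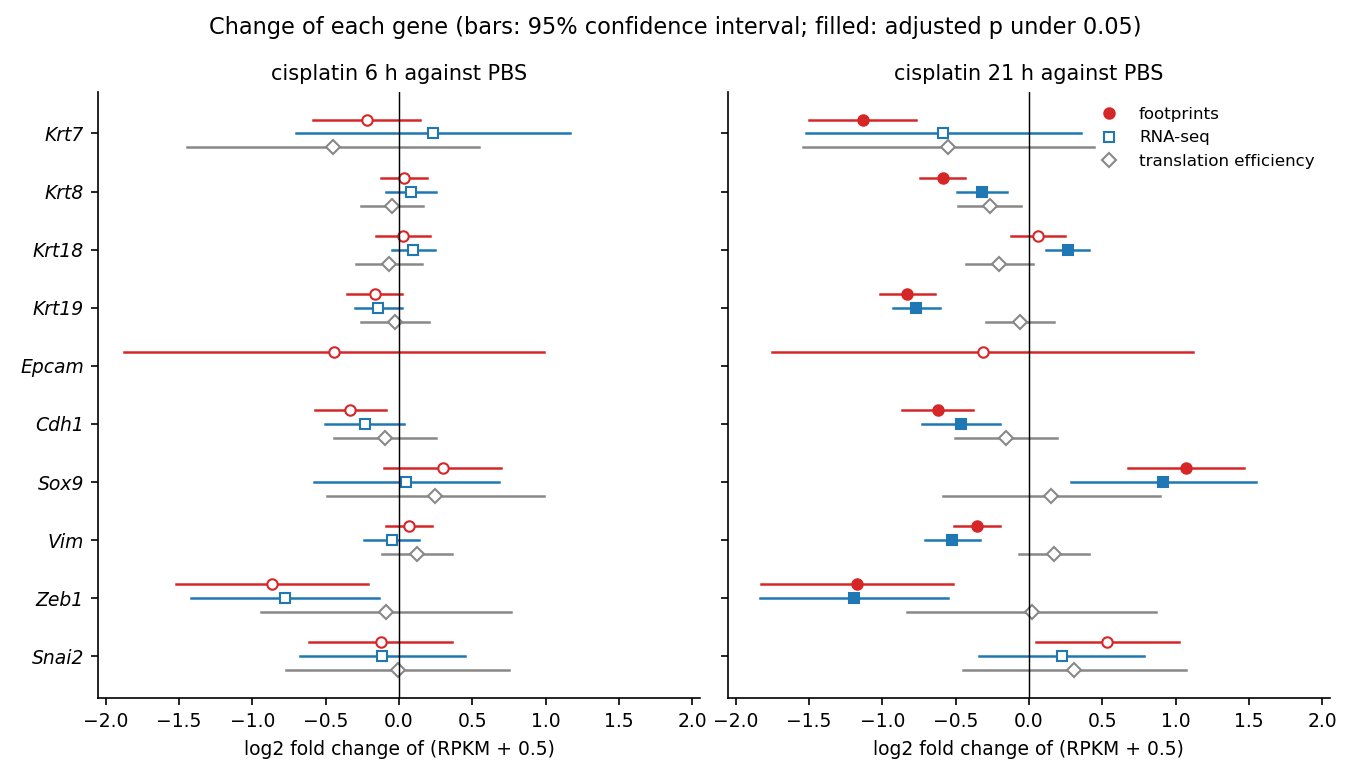
Log2 fold change of (RPKM + 0.5) against PBS at 6 h (left) and 21 h (right) for footprints, RNA-seq and translation efficiency, with 95% confidence intervals, filled where the limma adjusted p was under 0.05. No symbol is filled at 6 h; at 21 h the footprint symbols of 6 genes are filled left of 0 and that of Sox9 right of 0, with Krt18 at 0.06 and no filled symbol for translation efficiency.

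Between 6 h and 21 h, with no PBS library in the comparison, footprints of Krt7, Krt8, Krt19 and Vim were lower and those of Sox9 and Snai2 higher, 4 and 2 of the 10, where 15.7% and 15.0% of all tested transcripts were called. Krt7 fell by 0.91, Krt19 by 0.66, Krt8 by 0.62 and Vim by 0.42 on the log2 scale. Sox9 rose by 0.77 (limma adjusted p = 0.0117). Its call was lost without the second 6 h library (0.0688) or the first 21 h library (0.0561). Snai2 rose by 0.66 (SE 0.21, limma adjusted p = 0.0469). That call was lost with quantile normalization (limma adjusted p = 0.0545), with no filter on low values (0.0921) and with eBayes without a trend (0.0946). It was also lost without the second 6 h library (rise of 0.45) or either 21 h library (0.56 and 0.76). Cdh1 and Zeb1 had changes of -0.29 and -0.31 that did not pass (limma adjusted p = 0.0689 and 0.452). Cdh1 was called lower by voom (adjusted p = 0.0125), with quantile normalization (0.0329) and without the second 21 h library (0.0459). Krt18 and Epcam had changes of 0.03 and 0.13, in groups that overlapped.

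The message of most of these genes changed with their footprints. In RNA-seq at 21 h against PBS, 5 of the 9 genes tested were lower (Krt8, Krt19, Cdh1, Vim and Zeb1), where 12.2% of all transcripts were, and 2 were higher (Krt18 and Sox9), where 11.6% were. The median was -0.46 over the 9 genes and 0.02 over all tested. Leaving out any one of the 4 libraries compared lowered the number called, among these genes and among all transcripts. Krt19 message was 477 and 464 RPKM in PBS and 274 and 312 RPKM at 21 h (log2 fold change -0.77, SE 0.07, limma adjusted p = 0.000172). Vim message was 676 and 621 RPKM in PBS and 480 and 476 RPKM at 21 h (log2 fold change -0.52, SE 0.08, limma adjusted p = 0.00233). For both genes the groups did not overlap.

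Krt8 and Krt18 messages moved in opposite directions. Krt8 was at 580 and 537 RPKM in PBS and 464 and 482 RPKM at 21 h (log2 fold change -0.32, SE 0.08, limma adjusted p = 0.0140). Krt18 was at 426 and 421 RPKM in PBS and 544 and 534 RPKM at 21 h (log2 fold change 0.26, SE 0.07, limma adjusted p = 0.0187). Neither pair of groups overlapped. The limma call of Krt8 did not hold without the first PBS library (adjusted p = 0.109) or the second 21 h library (0.0546). Quantile normalization moved its log2 fold change to -0.05. The call of Krt18 was lost without either PBS library (0.0748 and 0.115) or the first 21 h library (0.0857). RefSeq names a pseudogene, Krt8-ps, and how reads that map to several places were counted is not given in the sources used here.

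Cdh1 message was 38.3 and 44.8 RPKM in PBS and 31.0 and 32.4 RPKM at 21 h (log2 fold change -0.46, SE 0.12, limma adjusted p = 0.0203). Sox9 message was 3.54 and 2.33 RPKM in PBS and 5.81 and 6.71 RPKM at 21 h, from 28 to 58 reads (log2 fold change 0.92, SE 0.28, limma adjusted p = 0.0404). Zeb1 message was 1.11 and 1.32 RPKM at 21 h, from 15 and 16 reads (log2 fold change -1.19, SE 0.29, limma adjusted p = 0.0155). These 3 calls were thin, since that of Sox9 and that of Zeb1 were each lost without any one of the 4 libraries compared (adjusted p of 0.0553 to 0.230 and 0.0515 to 0.0985), and that of Cdh1 without the second PBS library (0.142) or either 21 h library (0.0669 and 0.0759). Krt7 and Snai2 had 5 to 34 reads per RNA-seq library and did not pass, with log2 fold changes of -0.58 (95% confidence interval -1.52 to 0.35) and 0.22 (-0.34 to 0.79).

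Between 6 h and 21 h in RNA-seq, 3 of the 9 genes were lower (Krt8, Krt19 and Vim), where 8.21% of transcripts were, and none was higher, where 7.53% were. The overall split of 711 higher and 775 lower became 1234 and 514 on RPKM without scaling factors. Krt19 fell by 0.63, Vim by 0.47 and Krt8 by 0.40 on the log2 scale (limma adjusted p = 0.000810, 0.00612 and 0.00766). Without the first 6 h library the adjusted p of Krt8 was 0.0513. With quantile normalization neither Vim nor Krt8 passed, at -0.18 and -0.11 (limma adjusted p = 0.154 and 0.266). Of the 9, 5 had an unadjusted p under 0.05, against 31.0% of all tested, the other two being Krt18 (log2 fold change 0.17, limma adjusted p = 0.125) and Sox9 (0.87, limma adjusted p = 0.0648), both called higher by voom, where 10.4% of all were. The changes of Krt7, Cdh1, Zeb1 and Snai2 were -0.81, -0.23, -0.42 and 0.34, with 95% confidence intervals that included 0.

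Relative to the typical transcript, translation efficiency did not change detectably for any of these genes. At 6 h limma called none of the 9 and 0.0% of 9295 transcripts, with 710 transcripts (7.64%) and none of the 9 at an unadjusted p under 0.05, and voom called 4 transcripts higher and 10 lower (0.151% together), none of them among these genes. The 9 changes at 6 h lay between -0.45 for Krt7 and 0.25 for Sox9, with Vim at 0.12. At 21 h, where 0.258% of transcripts were called higher and 0.151% lower, neither limma nor voom (1.62% of all called) called any of the 9, and 1 had an unadjusted p under 0.05, near the 12.7% of all tested. That gene was Krt8, at 8.31 and 8.72 footprint RPKM per RNA-seq RPKM in PBS and 6.92 and 6.76 at 21 h, groups that did not overlap. Its change in translation efficiency was -0.27 on the log2 scale (95% confidence interval -0.48 to -0.05, limma adjusted p = 0.292). The interval was -0.43 to 0.03 for Krt18, -0.29 to 0.17 for Krt19, -0.51 to 0.19 for Cdh1 and -0.07 to 0.41 for Vim, while those of Krt7, Sox9, Zeb1 and Snai2 were between 1.47 and 1.99 log2 units wide, too wide to read a change from.

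The balance between the keratins shifted at 21 h. The ratio of Krt8 to Krt18 footprint RPKM was 2.80 and 2.98 in PBS, 2.89 and 2.92 at 6 h, and 1.93 and 1.76 at 21 h. In RNA-seq the same ratio was 1.36 and 1.27 in PBS, 1.40 and 1.22 at 6 h, and 0.853 and 0.903 at 21 h. Krt18 message per length thus went from below that of Krt8 to above it. This crossing rests on the transcript lengths. From reads not divided by length the ratio was 1.85 and 1.74 in PBS and 1.16 and 1.23 at 21 h. The 21 h libraries were the lowest in both assays. With 2 libraries a group an exact two-sided permutation test cannot give a p below 0.333, and no p is given for the ratios.

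Krt19 also shifted relative to Krt18. Its footprint ratio to Krt18 was 1.79 and 1.71 in PBS, 1.49 and 1.57 at 6 h, and 1.03 and 0.866 at 21 h. Of the summed footprint RPKM of the 4 keratins (9297 ± 486 in PBS, 9212 ± 33.1 at 6 h and 6671 ± 89.0 at 21 h), Krt18 made up 17.7% ± 0.218 in PBS and 26.4% ± 1.63 at 21 h, and Krt19 31.0% ± 1.41 and 24.9% ± 1.48. The share of all footprints that fell on Krt8, Krt18 and Krt19 was 0.900% ± 0.0125 at 21 h, against the 1.26% in PBS.

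Since one type II chain pairs with one type I chain, the sums of the 2 types were compared. Footprints of Krt7 and Krt8 over those of Krt18 and Krt19 had a ratio of 1.06 ± 0.0689 in PBS, 1.15 ± 0.0158 at 6 h and 0.948 ± 0.00585 at 21 h, with the 21 h libraries below the others. The message ratio was 0.626 ± 0.0260, 0.674 ± 0.0481 and 0.570 ± 0.00127. With Krt79 added to type II and Krt13, Krt20 and Krt23 to type I, the keratins of at least 5 RPKM in footprints, the footprint ratio was 0.913 ± 0.0533 in PBS, 0.973 ± 0.0170 at 6 h and 0.704 ± 0.00503 at 21 h. Most of what was added to type I was Krt20, a keratin of differentiated epithelia, which had 669 ± 17.5 RPKM in PBS and 1131 ± 46.5 RPKM at 21 h.

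**Figure D3:**
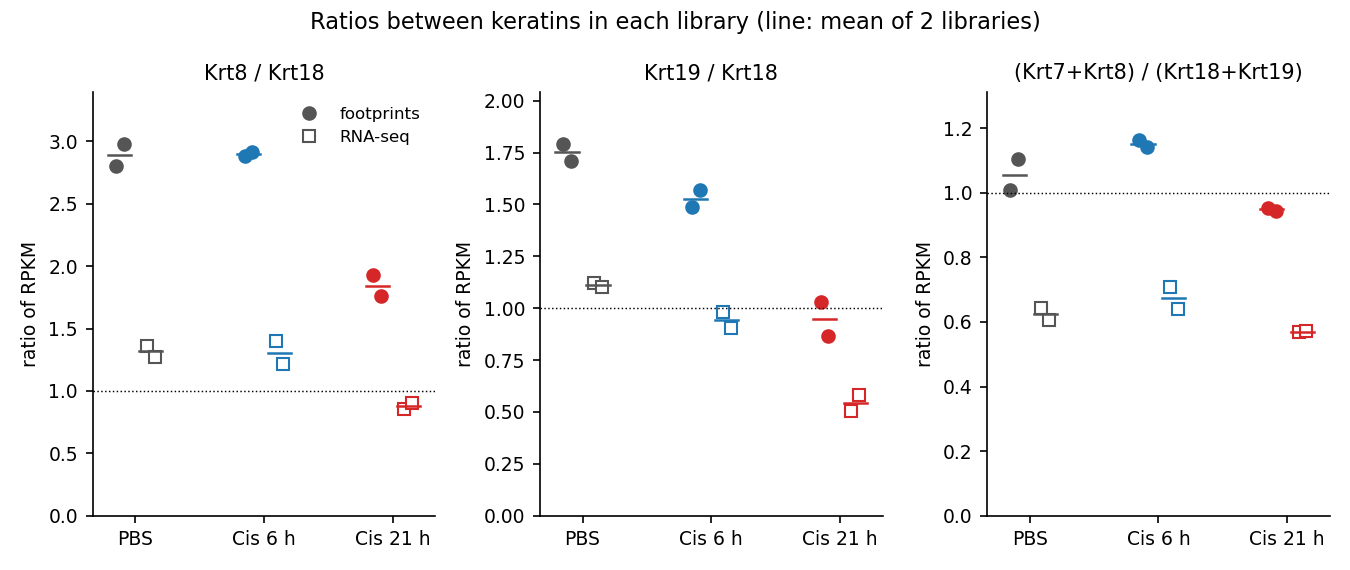
Ratios of RPKM between keratins in each library, for footprints (filled circles) and RNA-seq (open squares), with the mean of 2 libraries as a line and a dotted line at 1. Krt8 over Krt18 in footprints is between 2.80 and 2.98 in PBS and between 1.76 and 1.93 at 21 h, and in RNA-seq it falls below 1 at 21 h.

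By 21 h the order of the levels had changed accordingly. In footprints Krt8 (3238 ± 33.7 RPKM) and Vim (2899 ± 45.6) still led, but Krt18 (1762 ± 133) and Krt19 (1662 ± 76.6) now overlapped, and Sox9 (26.8 ± 5.71) and Snai2 (22.9 ± 2.30), which overlapped each other, stood above Krt7 (9.64 ± 0.638). In RNA-seq Krt18 was the highest of the 10 at 539 ± 6.88 RPKM, above Vim and Krt8, which overlapped (478 ± 3.28 and 473 ± 12.8 RPKM).

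The lengths of these genes in the genome differ widely, and the median change after cisplatin differed between classes of transcripts by genomic span. Over the RefSeq span (GRCm38.p6), the median footprint change at 21 h was 0.20 for 2589 transcripts under 10 kb, 0.12 for 5112 of 10 to 50 kb, -0.33 for 1513 of 50 to 100 kb and -1.08 for 1124 over 100 kb. Zeb1 spans 184 kb and its change of -1.17 lay close to the median of its class. Cdh1 spans 66.9 kb, and its change of -0.62 lay between the median and the lower quartile (-0.67) of its class. Krt8 (7.63 kb), Krt19 (5.12 kb) and Vim (8.52 kb) are short genes, and each lay below the lower quartile of the short class (-0.10). Krt7 (15.4 kb) lay below the lower quartile of its class as well (-0.18), and Sox9 (5.55 kb) above the upper quartile of the short class (0.56). The part of gene length in these results was not tested.

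**Figure D4:**
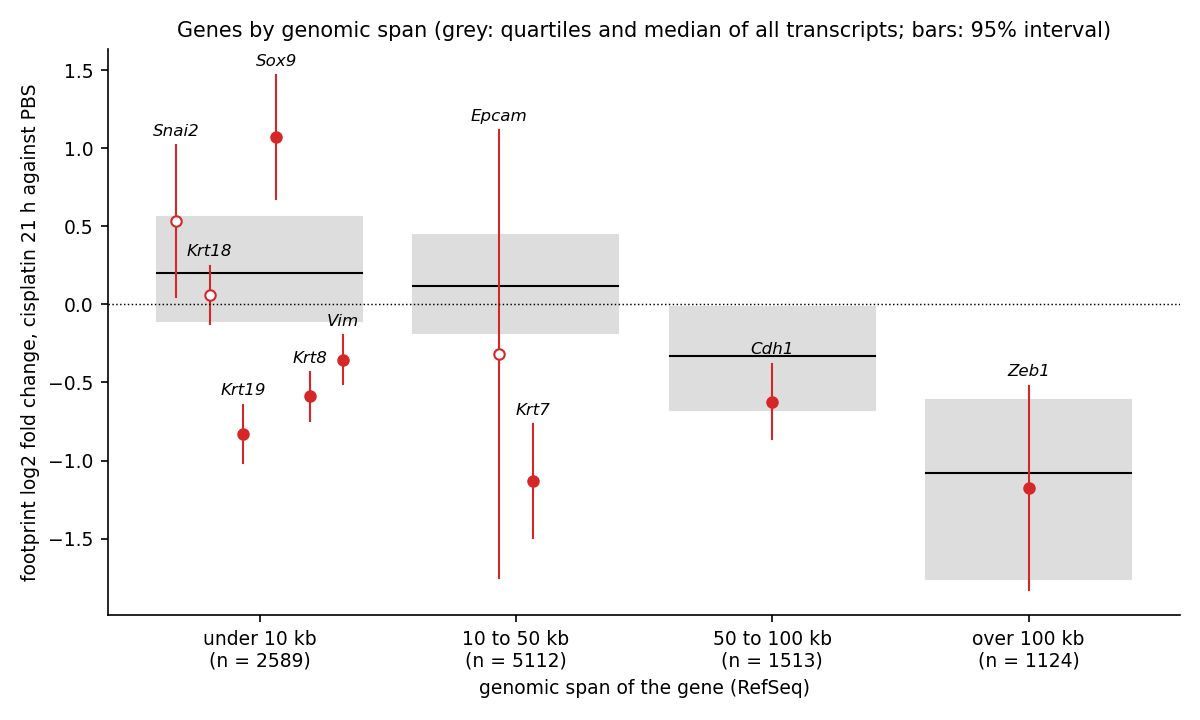
Footprint log2 fold change at 21 h against PBS of the 10 genes by genomic span (points with 95% confidence intervals, filled where the limma adjusted p was under 0.05), over the quartiles (grey) and median (line) of all tested transcripts of the span class. Krt8, Krt19 and Vim lie under the grey box of their class and Sox9 above it, while Zeb1 and Cdh1 lie inside theirs.

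Other genes of filaments and junctions were called in both directions. Of 7 other keratins tested in footprints at 21 h, 2 were higher (Krt20, log2 fold change 0.72; Krt23, 0.40) and 1 lower (Krt79, -0.61), with a median of 0.40. Of 9 genes of desmosomes and filament linkers, 1 was higher (Perp, a desmosomal membrane protein, 0.78) and 2 lower (the plakophilins Pkp4, -1.83, and Pkp2, -0.45), with a median of 0.06. Of 19 genes of adherens and tight junctions, 6 were lower and 1 higher, with a median of -0.32. Among them the scaffold genes Pard3 and Afdn fell by 3.52 and 1.38, and the polarity gene Pard6b rose by 0.68. The median over all tested transcripts was 0.01, and the percentages called over all transcripts are those given above for the same comparison.

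Regulators of epithelial state were called in both directions, in shares to be read against the 18.9% higher and 20.2% lower of all transcripts. Of 12 such genes 3 were higher, among them the transcription factors Elf3 (log2 fold change 1.16) and Klf4 (1.03), and 1 was lower (Grhl2, -1.71, on 31 and 21 reads in PBS and 4 and 3 at 21 h), with a median of 0.17. Of 13 duct and progenitor genes, 1 was higher (Hes1, a Notch target, 1.62) and 3 lower, among them the transcription factor Onecut2 (-1.66) and the secreted lipocalin Lcn2 (-0.59), with a median of 0.07.

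Genes of the mesenchymal side were called in both directions, against the same 18.9% higher and 20.2% lower over all transcripts. Of 23 genes for transcription factors of epithelial-mesenchymal transition and for the TGF-beta pathway, 8 were lower and 4 higher, with a median of -0.47. The chromatin protein gene Hmga2 fell by 2.51 and the E-box factor gene Tcf4 by 1.50, while Id3, an inhibitor of E-box factors, rose by 1.60 and Smad7, an inhibitor of TGF-beta signalling, by 0.88. Of 24 further mesenchymal genes 9 were lower and 1 higher, with a median of -0.31. Cdh2, which encodes N-cadherin, fell by 2.00 and the adhesion gene Ncam1 by 3.88, and the matricellular gene Ccn1 rose by 0.89. Footprints of Cdh1 and Cdh2 were thus both lower at 21 h than in PBS. The genes named from this and the other lists were not set beside the medians of their span classes. That median was -1.08 for all tested transcripts over 100 kb.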

How the data were processed

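Ribosome footprints (RNase I fragments of about 25 to 35 nucleotides) and RNA-seq of the same KPC lysates were deposited by the authors as RPKM per transcript, 1 table per library. The submitters' processing notes name cutadapt, STAR and GRCm39, and the counter, its treatment of strand and of multiply mapped reads are not given in the sources used here. RPKM times the coding length (footprints) or transcript length (RNA-seq) and the library total gave whole reads for 100.0% of values. Read numbers given beside low values speak to counting error only.

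For footprints and RNA-seq separately, RPKM were divided by median-of-ratios factors, transcripts with a mean of at least 1 RPKM were kept, and log2(RPKM + 0.5) was tested with limma 3.58.1 in R 4.3.3 (all 3 groups, trended eBayes, two-sided, Benjamini-Hochberg over all transcripts tested, adjusted p under 0.05). Fold changes are on this log2 scale, which understates the change of low genes. They are relative to the other transcripts of the assay, so a change shared by all transcripts does not show. The study reports inhibited protein synthesis after cisplatin by puromycin labelling, which these relative values do not measure. Translation efficiency was the assay by treatment interaction over 12 libraries. The labels do not say that replicates were separate cultures, so p-values measure only the spread between these libraries. Replicates differed by more than sampling noise and were counted separately. Alternatives were pseudocounts of 0.1 and 1, filters of none and 5 RPKM, no factors, quantile normalization, eBayes without a trend, voom on recovered reads, only the compared groups, a replicate block and each library left out.

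The rule for named genes was all 10 genes and, from each list, up to 2 called genes with the largest rise and 2 with the largest fall in footprints at 21 h, with groups that did not overlap. The genes and lists were chosen with earlier results of these data known. Gene spans (99.1% of transcripts matched) and promoters are from RefSeq GRCm38.p6, matched by symbol or gene ID and not converted. The full genotype of the line is not reported here.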

Additional observations from a re-analysis of the deposited data

Results flagged for a closer look

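Each result here was marked because the change at 21 h differed from the change at 6 h by a test of that difference (limma, which equals 21 h against 6 h, since both times share their PBS libraries). In footprints the difference was -0.91 for Krt7, -0.62 for Krt8, -0.66 for Krt19, -0.42 for Vim, 0.77 for Sox9 and 0.66 for Snai2. The calls of Sox9 and Snai2 were lost in 2 and 6 of 16 alternatives. In RNA-seq the difference was -0.40 for Krt8, -0.63 for Krt19 and -0.47 for Vim, with calls lost in 3, 1 and 2 of 16 alternatives. For these genes the 21 h libraries did not overlap the 6 h libraries in the assay named. Groups of 2 libraries are too small for a check of single outlying samples.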

How the results depend on the processing

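Footprint calls at 21 h against PBS for Krt7, Krt8, Krt19, Cdh1, Sox9 and Vim kept their direction and stayed called under each of 16 alternatives. The cause of the changes below was not tested. For footprints at 6 h, voom called 2 genes. For RNA-seq at 21 h against PBS, 2 of 9 genes were called with eBayes without a trend and 3 to 7 with a library left out. In RNA-seq at 21 h against PBS, 712 of 9443 transcripts were higher and 889 lower without a trend, against 1093 and 1152 with it. For RNA-seq at 21 h against 6 h, 5 genes were called without scaling factors, where 1234 of 9460 transcripts were higher and 514 lower. Voom also called 5, where 985 of 9443 were higher and 1027 lower. Without a trend 0 were called, where 360 of all were higher and 430 lower (5 had an unadjusted p under 0.05). Without factors the median of all transcripts there was 0.15, against 0.01. Over all transcripts, footprints at 6 h gave 109 calls higher and 103 lower, against 454 and 822 by voom, 182 and 162 at 5 RPKM, 198 and 244 with only the groups compared, 17 and 20 with the replicate block, 9 and 8 with no filter and 0 without a trend. They were 8 and 9 or 12 and 18 without a PBS library, and 1 and 5 or 0 without the first or second 6 h library. Translation efficiency at 21 h gave 24 and 14, against 73 and 78 by voom, 37 and 30 at 5 RPKM, 4 and 4 with no filter, 2 and 1 with only the groups compared and 0 without a trend or with the block, and as few as 1 and 1 without a library (the second RNA-seq library at 21 h). RNA-seq at 21 h against 6 h gave 711 and 775, against 360 and 430 without a trend and 423 and 493 with no filter, and 261 and 423 to 428 and 419 without a 6 h or 21 h library. RNA-seq at 21 h against PBS gave 1093 and 1152, and 510 and 548 to 625 and 864 without a PBS or 21 h library. Footprints at 21 h against 6 h gave 1555 and 1634, and 755 and 846 or 843 and 912 without a 6 h library. Replicate numbers did not pair the libraries (correlations of deviations from -0.0143 to 0.0215). With the replicate block 8 genes were called in footprints at 21 h, where 1857 of 10383 transcripts were higher and 2012 lower. Snai2 was added (adjusted p = 0.0307 in limma), and no other gene's call changed. The type II to type I ratio from reads not divided by length was 1.26, 1.37 and 1.12 in footprints and 0.814, 0.881 and 0.752 in RNA-seq (PBS, 6 h, 21 h). With every keratin of at least 5 RPKM, an alternative chosen after seeing the data, it was 0.913, 0.973 and 0.704, and 0.568, 0.600 and 0.479.

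The following values, none of which passed in any fit, changed sign. In footprints at 6 h Krt8 was -0.10 with quantile normalization. Without factors Sox9 message at 6 h was -0.0082, and translation efficiency at 6 h was 0.014 for Krt18, 0.057 for Krt19, 0.034 for Krt8 and 0.067 for Snai2 (0.010 by voom). Translation efficiency at 21 h was -0.0059 for Vim with quantile normalization, and for Zeb1 -0.087 with a pseudocount of 1 and -0.0059 without factors. With a library left out, footprint changes at 6 h ranged from -0.92 to 0.15 for Epcam, -0.023 to 0.068 for Krt18 and -0.39 to 0.13 for Snai2. At 21 h they ranged from -0.80 to 0.46 for Epcam and -0.0076 to 0.15 for Krt18, and against 6 h from -0.47 to 0.90 for Epcam, -0.045 to 0.11 for Krt18 and -0.71 to 0.092 for Zeb1. RNA-seq changes at 6 h ranged from -0.22 to 0.68 for Krt7, -0.22 to 0.32 for Sox9 and -0.15 to 0.045 for Vim, and at 21 h from -0.10 to 0.55 for Snai2. Translation efficiency at 6 h ranged from -0.19 to 0.0036 for Cdh1, -0.11 to 0.047 for Krt19, -0.90 to 0.0016 for Krt7, -0.12 to 0.027 for Krt8, -0.27 to 0.24 for Snai2, -0.017 to 0.52 for Sox9 and -0.25 to 0.076 for Zeb1. At 21 h it ranged from -0.14 to 0.018 for Krt19, -0.017 to 0.64 for Snai2, -0.11 to 0.42 for Sox9 and -0.37 to 0.43 for Zeb1. Reads limit what can be said of Epcam, of Krt7 in RNA-seq and of Zeb1 and Snai2.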
